A study of Elaeis guineensis with 12 samples.

Results

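The 60 gene models described here are those whose RNA was lowest in normal staminodia relative to every other organ sampled from stage 3 florets of clonal oil palms, Elaeis guineensis. For each model the lowest value among the 9 libraries of normal carpel, mantled carpel and mantled staminodia was set against the highest value among the 3 libraries of normal staminodia. Values are CPM, the reads of a model scaled to the same total of assigned reads in every library. The score is the log2 ratio of the lowest and the highest CPM after adding 1 to each, and the 60 highest scores were taken from 13096 models with a mean CPM of 5 or more, out of 26087 models in all. The members were thus chosen by their CPM in all 12 libraries, and their low values in normal staminodia are a description and not a result.

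The female flower of the oil palm carries a ring of staminodia, sterile male organs that stay small, around the carpels that form the fruit. In the mantled variant, which arises in tissue culture, the staminodia grow as extra carpels called pseudocarpels. Floral organ identity in plants rests on combinations of MADS-box transcription factors: B-class factors acting with C-class factors specify stamens, and C-class factors without B-class factors specify carpels. Loss of B-class activity turns stamens into carpels in model plants, and in mantled oil palm the B-class gene DEFICIENS has been linked to the variant through altered DNA methylation. The deposited feature names (100342 in all) were looked up among 185249 symbols, tags and accessions of the RefSeq gene table, and 0 were found, so no member can be given a gene name or a role, no floral marker could be checked against the organ labels, and no sequence is shown.

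Laser capture cut staminodia (in mantled flowers, the pseudocarpel initials) and carpels out of frozen sections, and each organ was sequenced on its own. The 4 groups, normal and mantled staminodia and normal and mantled carpel, hold 3 libraries each. The mantled libraries came from 3 palms, 1 library of each organ per palm. The normal libraries came from 2 palms, since replicates 1 and 2 both carry the ID of normal palm 1 and come from a single inflorescence, while replicate 3 is normal palm 2. All palms are clonal plants, and the labels give palm IDs but no age or treatment. The ID of mantled palm 1 has a different prefix from those of the other palms, which share a prefix. What the prefix stands for was not examined. Assigned reads ran from 2121145 to 8066978 per library, with a median of 3232116. Both libraries of normal palm 2 stood apart: of the 13096 models kept, 505 had no read in normal staminodia replicate 3 and 798 had none in normal carpel replicate 3, against 6 to 259 in the other libraries. These 2 libraries held 2153546 and 2349579 reads, while mantled carpel replicate 3, with 2121145, had 188 such models. Results are therefore also given without normal palm 2 where it moves them.

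The working name of the set speaks of models that mantled staminodia gained, but every member had some reads in normal staminodia. None of the 60 was at 0 in all 3 normal staminodia libraries, and 7 were at 0 in at least 1 of them, 6 of these in replicate 3. In 8 members the highest normal staminodia library held fewer than 10 reads, so their level there lies near the limit of detection. Summed over the 60 members, the level was 2698 CPM, 2150.4 CPM and 2272 CPM in normal staminodia replicates 1 to 3. The same sum was 5351 CPM, 4495 CPM and 5112 CPM in mantled staminodia, 4044 CPM, 4029.8 CPM and 4490.2 CPM in normal carpel, and 5085 CPM, 4705 CPM and 4834 CPM in mantled carpel. Members of high CPM weigh most in these sums, and p5_sc00010_cds_336 alone held 979 CPM in mantled staminodia replicate 1. The group means over palms of mantled staminodia were 1.44 to 44.6 times those of normal staminodia, with a median of 2.97 times. They were at least 2 times as high in 45 of the 60 members. For normal carpel this held in 38 members with a median of 2.34 times, and for mantled carpel in 43 with a median of 3.10 times. Over all models kept, the shares at least 2 times normal staminodia were 11.5%, 9.87% and 11.9%, and since the rule used this contrast nothing is read from the difference. As a set, the members are thus better called models with a reduced level in normal staminodia than carpel models switched on in mantled staminodia. Captured regions are mixtures, so fewer cells that express a model and less RNA per cell cannot be told apart.

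**Figure D1:**
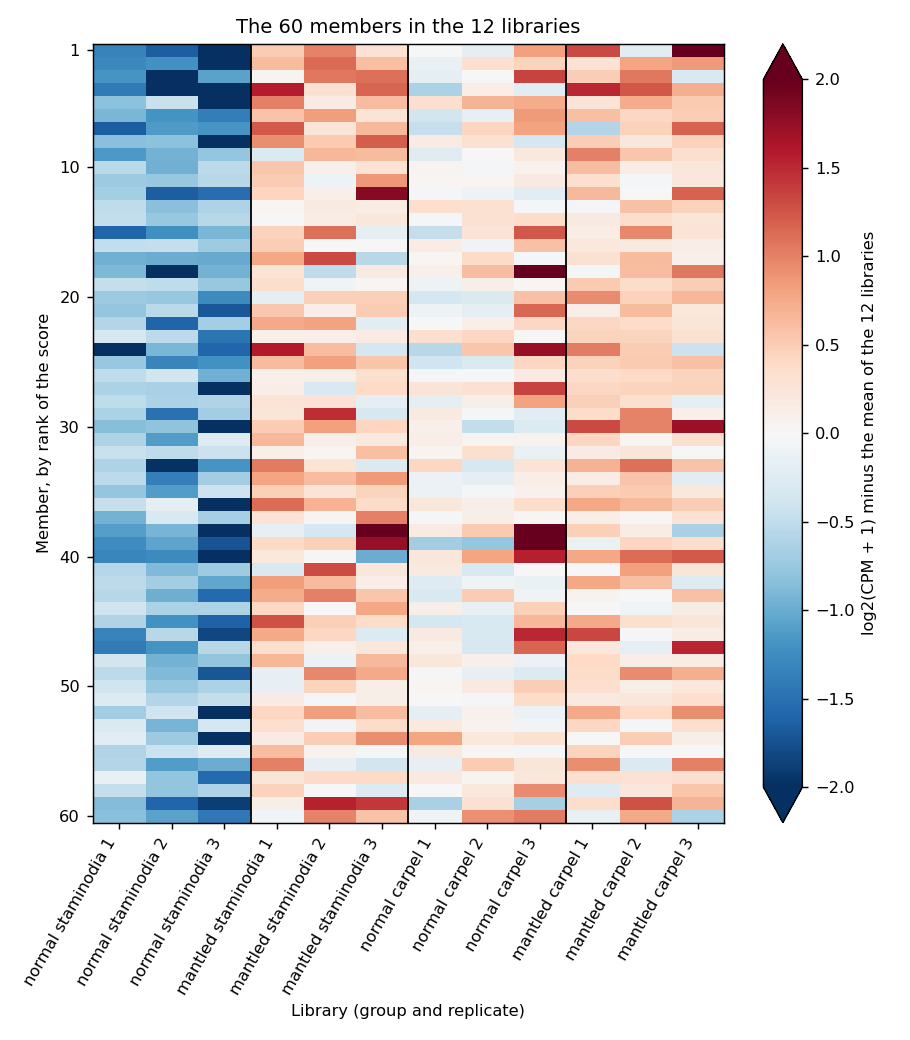
Levels of the 60 members (rows, highest score at the top) in the 12 libraries (columns), as log2(CPM + 1) minus the mean of the row over all libraries. The 3 normal staminodia columns are the lowest in every row by the way the members were chosen, and the order of the other 9 columns differs from row to row. Summed over the members, the normal carpel libraries held 4030 to 4490 CPM and the mantled libraries 4495 to 5351 CPM. Members of high CPM weigh most in these sums.

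Scores were small, and below the first few ranks they fell smoothly. The highest was 1.11 and the median 0.30, 2 members reached 1 and 53 lay under 0.5. Of all 13096 models kept, 172 (1.31%) had a score above 0, which means that the 3 normal staminodia libraries lay below all 9 others, and nothing is read from this share because the rule used the same contrast. The last member, maker-p5_sc00019-snap-gene-1.60-mRNA-1:cds, had a score of 0.19 and stood at 1.94, 1.47 and 0.929 CPM in normal staminodia. Its lowest level elsewhere was 2.36 CPM, in mantled carpel replicate 3, which rests on 5 reads. The first model outside, p5_sc00018_cds_446, also had a score of 0.19 and stood at 44.1, 40.4 and 38.5 CPM in normal staminodia, with 50.4 CPM in normal carpel replicate 1 as its lowest level elsewhere. The threshold thus separates models by a margin smaller than the rounding of their scores.

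Counting error was set beside the gap between the highest normal staminodia library and the lowest other library. The exact Poisson 95% intervals of those 2 libraries overlapped in 50 members and lay apart in 10. The rule used the values of these same 2 libraries, and no share over all models kept was computed. The 10 are thus a description and not a result. Overlap of intervals does not show that 2 libraries have the same level. The intervals cover counting error only and leave out the spread between palms. Reads without molecular identifiers are not independent molecules, so the intervals can be too narrow even for counting error. In 8 members even the highest normal staminodia library held fewer than 10 reads. In these 10 the lowest library outside normal staminodia held 87 to 1373 reads, and p5_sc00099_cds_161 and p5_sc00010_cds_336, named after their values were seen, are examples. Model p5_sc00099_cds_161 stood at 168 CPM, 126 CPM and 171 CPM in normal staminodia, and its lowest level elsewhere was 239 CPM in normal carpel replicate 2. Model p5_sc00010_cds_336 stood at 479.9, 318 and 355 CPM in normal staminodia and at 568 CPM in its lowest other library, normal carpel replicate 3. In both, normal staminodia replicate 2 was the lowest of all libraries.

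**Figure D2:**
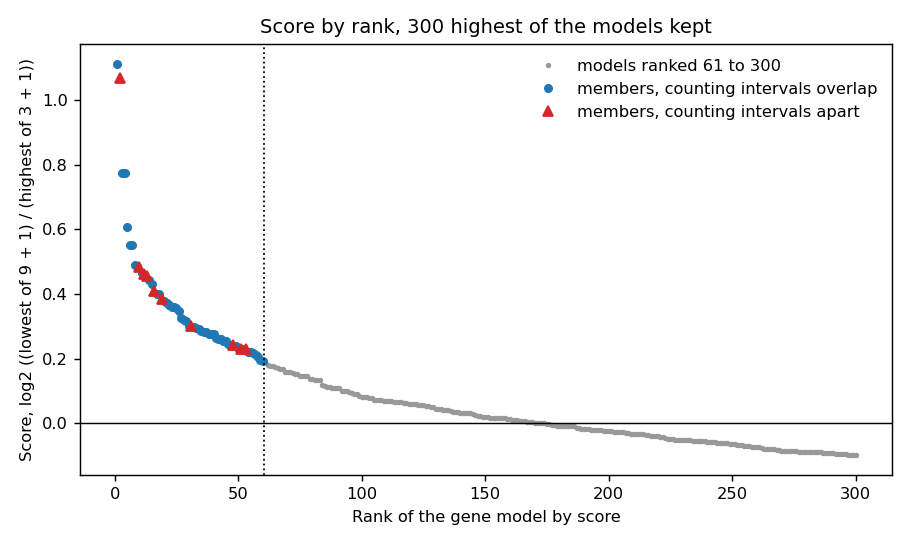
Score against rank for the 300 highest-scoring gene models, with the dotted line after the 60 members and a solid line at a score of 0. Red triangles are the 10 members whose 95% counting intervals in the 2 deciding libraries lay apart, and blue circles the 50 where they overlapped.

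The list depended strongly on single libraries of normal staminodia. Without normal staminodia replicate 1 only 14 of the 60 members remained among the 60 highest scores, without replicate 2 29 remained, and without replicate 3 23 remained. Leaving out normal carpel replicate 1 or 3 kept 36 and 37 members, leaving out replicate 2 kept 47, and summing libraries per palm and organ kept 36. Leaving out any of the 6 mantled libraries kept 46 to 57, and the other changes of constant, floor or scaling kept 50 to 60. Over the 12 libraries left out in turn, 5 members stayed in the list every time, and 4 of these also stayed under the other 6 alternatives. These 5 are described next, of which the first 2 have the highest scores and the other 3 were picked out after their values were seen.

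**Figure D3:**
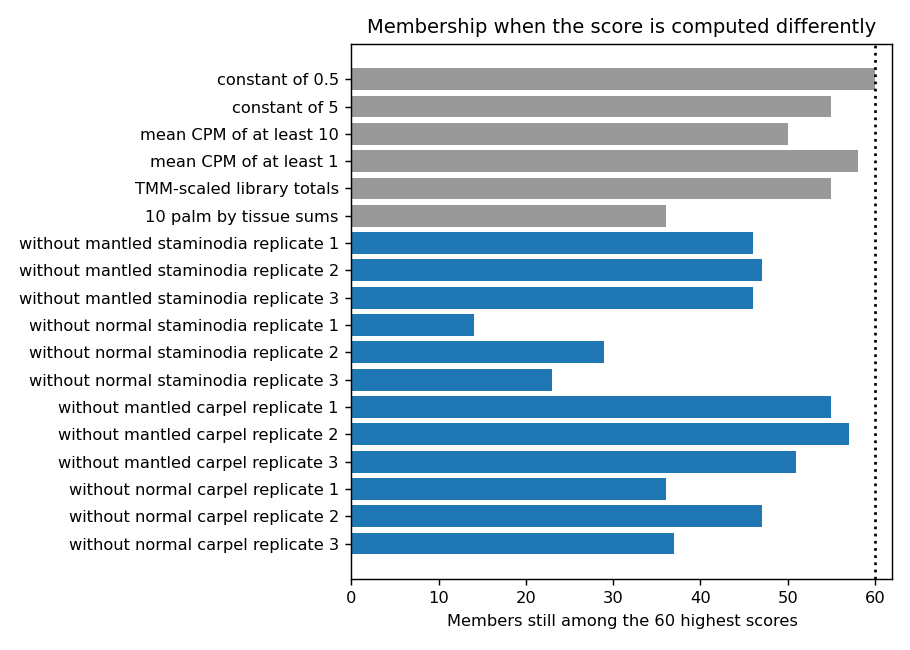
Number of the 60 members (horizontal axis, from 0) that were still among the 60 highest scores under each alternative, with grey bars for changes of constant, floor, scaling or unit and blue bars for 1 library left out. The shortest bars are those without normal staminodia replicates 1, 3 and 2, at 14, 23 and 29 members.

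Model maker-p5_sc00004-augustus-gene-4.46-mRNA-1:cds had a score of 1.07. It stood at 12.4, 13 and 5.11 CPM in normal staminodia replicates 1 to 3, on 51, 44 and 11 reads. In mantled staminodia it reached 49.4, 70.3 and 48.5 CPM, in normal carpel 28.3, 39.5 and 43.4 CPM, and in mantled carpel 38.7, 55.0 and 57.5 CPM. Every library outside normal staminodia was above the highest normal staminodia library, as the rule requires, and the counting intervals of the 2 deciding libraries lay apart, at 9.43 to 17.4 CPM and 22.7 to 34.9 CPM. Mantled carpel overlapped both other groups, and all 3 mantled staminodia libraries lay above all 3 normal carpel libraries. Over palms its means were 8.87 CPM ± 5.32 (SD, n = 2) in normal staminodia, 56.1 ± 12.3 (SD, n = 3) in mantled staminodia, 39.2 ± 5.99 (SD, n = 2) in normal carpel and 50.4 ± 10.2 (SD, n = 3) in mantled carpel.

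The member with the highest score, maker-p5_sc00205-augustus-gene-12.72-mRNA-1:cds, rests on far fewer reads. It had 7, 4 and 0 reads in normal staminodia, or 1.70, 1.18 and 0 CPM. It stood at 8.69, 12.5 and 7.29 CPM in mantled staminodia, at 5.86, 4.97 and 11.1 CPM in normal carpel, and at 16, 4.83 and 30.2 CPM in mantled carpel. The mantled carpel values spread widest, since replicate 2 was below all mantled staminodia libraries and replicate 3 above them. The counting intervals of normal staminodia replicate 1 (0.682 to 3.50 CPM) and mantled carpel replicate 2 (3.44 to 6.61 CPM) just overlapped.

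Model p5_sc00128_cds_72 stood at 3.39, 0.885 and 3.71 CPM in normal staminodia, on 14, 3 and 8 reads. Its levels were 9.35, 19.5 and 20.4 CPM in mantled staminodia, 7.81, 9.04 and 24.3 CPM in normal carpel and 12.9, 19.7 and 7.07 CPM in mantled carpel. Model maker-p5_sc00256-augustus-gene-4.43-mRNA-1:cds stood at 14.5, 11.8 and 10.2 CPM in normal staminodia. It reached 42.4, 51.2 and 33.9 CPM in mantled staminodia, 21.8, 25.1 and 51.9 CPM in normal carpel and 43.6, 38.1 and 40.1 CPM in mantled carpel. In both models normal palm 2 (replicate 3) was well above normal palm 1 in carpel.

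Model p5_sc00005_cds_635 stood at 44.8, 22.4 and 24.6 CPM in normal staminodia and at 70.9, 67.8 and 62.1 CPM in normal carpel, where the palms were close. In mantled carpel it reached 114 CPM, 72.8 CPM and 166 CPM and in mantled staminodia 97.9 CPM, 78.1 CPM and 259.8 CPM, so that all 6 mantled libraries exceeded the 3 normal carpel libraries. In both mantled organs palm 3 was the highest and palm 2 the lowest. Taking part IDs as pieces of 1 model, 8 of its parts had a mean CPM of 1 or more, and normal staminodia had the lowest group mean in 5 of them.

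The remaining comparisons, 3 in all, leave out normal staminodia and so were not the contrast that chose the members. A rule that takes the lowest of 9 libraries still favours models that vary little among them. Normal carpel also came from the same palms as normal staminodia, so a choice of models low in normal staminodia can favour models low in those palms. None of the 3 comparisons is thus independent of the choice, since the rule used all 9 libraries they draw on. How far the choice shifts them was not tested. All 60 members were tested in each, in fits over all models, with reads summed per palm and organ. In none of the 3 was any member called at a Benjamini-Hochberg threshold of 0.05 by the quasi-likelihood fits of edgeR, nor was any by limma voom or the other alternatives run. DESeq2 called none either, but in the comparison of the mantled organs it gave an adjusted p to only 16 of the 60 members, so the other 44 could not be called there. A p above the threshold does not show equal levels, and the intervals below state how far each comparison reaches.

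The first comparison, mantled over normal carpel, asks whether the members differ between phenotypes in the organ that both flowers share. Here 0 of 16191 models were called (0%), 607 models (3.75%) had an unadjusted p under 0.05, and DESeq2 and limma voom called 4 each. Of the 60 members, 4 had an unadjusted p under 0.05, all with higher values in mantled carpel, against 1.98% of all models in that direction and 1.77% in the other. The median log2 fold change of the members was 0.14 against 0.07 over all models tested, and 40 of 60 were positive against 55% of all models. The 95% interval lay within a 2-fold change either way for 18 of 60 members, against 16.5% of all models. In 15 members all 3 mantled carpel libraries lay above all 3 normal carpel libraries, which held for 8.44% of the models kept, and in 0 members did they all lie below, against 5.21%. Without normal palm 2 the median of the members was 0.29 with 47 of 60 positive, and 1 member in place of 4 had an unadjusted p under 0.05 in edgeR. That fit has 1 normal palm and takes its spread from the mantled palms alone.

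The member with the smallest p in this comparison, maker-p5_sc00080-augustus-gene-8.40-mRNA-1:cds, stood at 26.5, 20.8 and 35.4 CPM in mantled carpel and at 10.7, 6.78 and 8.09 CPM in normal carpel. The groups did not overlap, and the log2 fold change was 1.69 (SE 0.567, unadjusted p = 0.0121, adjusted p = 0.996 in edgeR). Its mantled staminodia libraries, at 14.7, 18.4 and 13.8 CPM, lay between the carpel groups, and normal staminodia stood at 5.09, 5.31 and 0 CPM. Model maker-p5_sc00020-augustus-gene-51.42-mRNA-1:cds stood at 65.9, 98.4 and 84.4 CPM in mantled carpel and at 49.5, 45.4 and 41.7 CPM in normal carpel, again without overlap, and its log2 fold change was 0.87 (SE 0.339, adjusted p = 0.996 in edgeR). It stood at 45.4, 100.4 and 86.4 CPM in mantled staminodia, where palm 1 was at the level of normal carpel and palms 2 and 3 were at that of mantled carpel.

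The members lower in mantled carpel with the smallest p were p5_sc00081_cds_94 and p5_sc00131_cds_181, and in both normal carpel replicate 3 was the highest carpel library. Model p5_sc00081_cds_94 stood at 6.35, 4.83 and 2.36 CPM in mantled carpel and at 4.88, 6.55 and 21.7 CPM in normal carpel, and its log2 fold change was -1.58 (SE 0.967, adjusted p = 0.996 in edgeR) that was -0.44 without normal palm 2. It was also uneven in mantled staminodia, at 3.67, 3.12 and 22.9 CPM. Model p5_sc00131_cds_181 stood at 5.25, 8.80 and 12.3 CPM in mantled carpel and at 5.86, 8.81 and 29.4 CPM in normal carpel, and its log2 fold change was -1.09 (SE 0.773, adjusted p = 0.996 in edgeR) that turned to 0.10 without normal palm 2. In both, the libraries of normal palm 1 lay within or near the mantled range.

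The second comparison sets the pseudocarpel initials against the carpels of the same 3 mantled palms, with palm as a block. Of 14768 models 2 (0.0135%) were called, and 1008 models (6.83%) had an unadjusted p under 0.05. Among the 60 members 3 had an unadjusted p under 0.05, a share near that of all models. Of these, 2 were higher in mantled staminodia, against 3.38% of all models, and 1 was lower, against 3.45%. The median log2 fold change of the members was 0.08 against -0.04 over all models, and 37 of 60 were positive against 46.9%. For 32 of 60 members the 95% interval lay within a 2-fold change either way, against 33.8% of all models. Mantled staminodia lay above mantled carpel in every palm in 9 members, against 13.1% of models kept, and below it in every palm in 8, against 17.7%.

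The member with the smallest p among those higher in mantled staminodia was maker-p5_sc00282-snap-gene-4.42-mRNA-1:cds, at 78.5, 69.9 and 82.4 CPM against 49.9, 67.3 and 38.2 CPM in palms 1 to 3. All 3 palms went the same way, by little in palm 2, and the log2 fold change was 0.64 (SE 0.270, adjusted p = 0.683 in edgeR). Model p5_sc00076_cds_133 stood at 73.8, 55.9 and 89.9 CPM against 54.5, 45.2 and 53.3 CPM, a log2 fold change of 0.54 (SE 0.252, adjusted p = 0.732 in edgeR). Its normal carpel libraries stood at 43.0, 47.7 and 30.2 CPM, of which only replicate 2 exceeded a mantled library (mantled carpel replicate 2), and its normal staminodia libraries stood at 21.1, 21.2 and 6.97 CPM.

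Model maker-p5_sc00048-augustus-gene-11.43-mRNA-1:cds went the other way. It stood at 15.7, 13.7 and 6.28 CPM in mantled staminodia and at 23.9, 30.4 and 33.0 CPM in mantled carpel, lower in all 3 palms, with a log2 fold change of -1.32 (SE 0.506, adjusted p = 0.593 in edgeR). Normal carpel stood at 15.9, 23.9 and 41.7 CPM and normal staminodia at 4.85, 5.01 and 1.86 CPM. Mantled staminodia thus held a level between normal staminodia and both carpel groups in this member, with palm 3 close to normal staminodia. The model with the next smallest p among the negative ones was maker-p5_sc00080-augustus-gene-8.40-mRNA-1:cds, described above, at -0.75 (SE 0.456, adjusted p = 0.843 in edgeR).

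The third comparison, mantled staminodia over normal carpel, sets the pseudocarpel initials beside the carpel of unaffected flowers. Phenotype and organ differ together in it, and it shares its normal carpel libraries with the first comparison and its mantled staminodia libraries with the second. Of 15059 models 7 (0.0465%) were called, and 645 models (4.28%) had an unadjusted p under 0.05. Of the 60 members 3 had an unadjusted p under 0.05, all with higher values in mantled staminodia, against 2.11% of all models in that direction and 2.18% in the other. All 3 mantled staminodia libraries lay above all 3 normal carpel libraries in 14 members, against 7.7% of the models kept, and below them in 1, against 6.76%. The median log2 fold change of the members was 0.20 against 0.06 over all models, with 40 of 60 positive against 53.7%. Without normal palm 2 the median of the members was 0.43 with 50 of 60 positive, and 0 members in place of 3 had an unadjusted p under 0.05 in edgeR, again with 1 normal palm. The 95% interval lay within a 2-fold change for 11 of 60 members, against 11.3% of all models, so this comparison is the least precise of the 3. The median SE of a member was 0.511 here, 0.414 in the first comparison and 0.312 in the second.

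**Figure D4:**
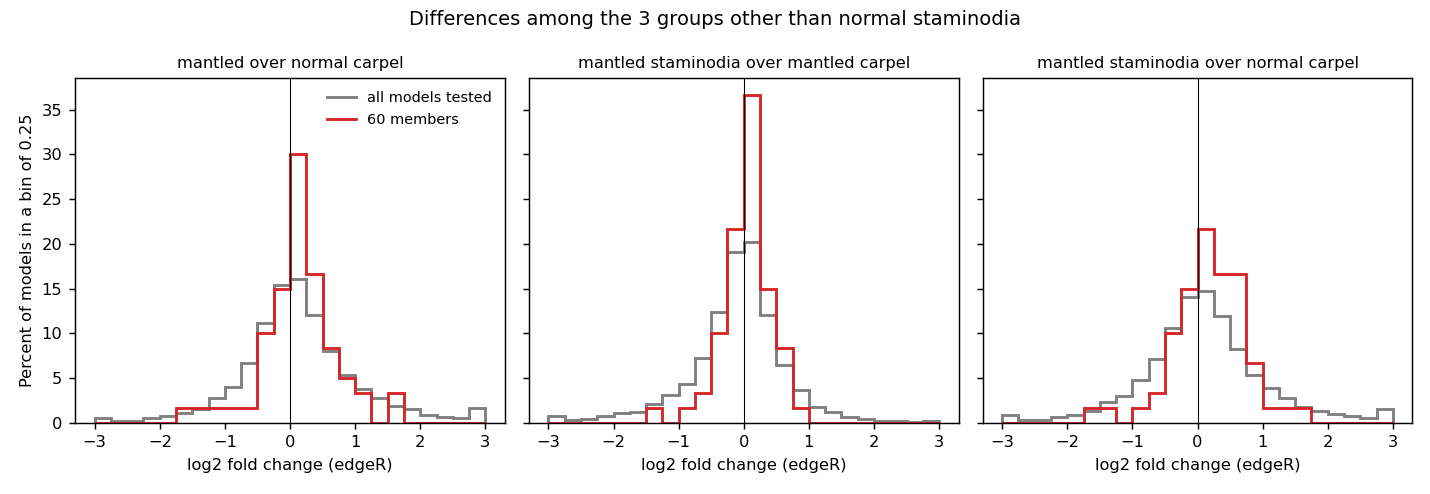
Share of models (vertical axis, percent in bins of 0.25) by log2 fold change in the 3 comparisons that leave out normal staminodia, for all models tested (grey) and the 60 members (red), with values beyond 3 either way placed in the end bins. The medians of the members were 0.14, 0.08 and 0.20, against 0.07, -0.04 and 0.06 over all models tested.

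Model maker-p5_sc00002-augustus-gene-123.36-mRNA-1:cds had the smallest p in the third comparison. It stood at 23.4, 64.5 and 59.3 CPM in mantled staminodia against 13.3, 26.9 and 13.2 CPM in normal carpel, and its log2 fold change was 1.47 (SE 0.597, adjusted p = 0.9997 in edgeR). The groups overlapped, since mantled palm 1 was below normal carpel replicate 2. In mantled carpel it stood at 27.8, 53.7 and 35.4 CPM and in normal staminodia at 11.4, 6.49 and 5.11 CPM, so that all 3 mantled carpel libraries lay above the normal carpel libraries. For p5_sc00005_cds_635, whose libraries are given above, the log2 fold change was 1.13 (SE 0.471, adjusted p = 0.9997 in edgeR), and without mantled palm 3 it was 0.42. The third member with an unadjusted p under 0.05, p5_sc00170_cds_72, named after its values were seen, stood at 209, 181 and 128 CPM in mantled staminodia, 97.3, 109 and 106 CPM in normal carpel and 198, 176 and 96.6 CPM in mantled carpel. Lowest relative to normal carpel were maker-p5_sc00048-augustus-gene-11.43-mRNA-1:cds, at -1.38 (SE 0.730, adjusted p = 0.9997 in edgeR), and p5_sc00131_cds_181, at 6.68, 3.52 and 6.28 CPM in mantled staminodia and -1.72 (SE 1.04, adjusted p = 0.9997 in edgeR). Without normal palm 2 these 2 stood at -0.84 and -0.51.

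**Figure D5:**
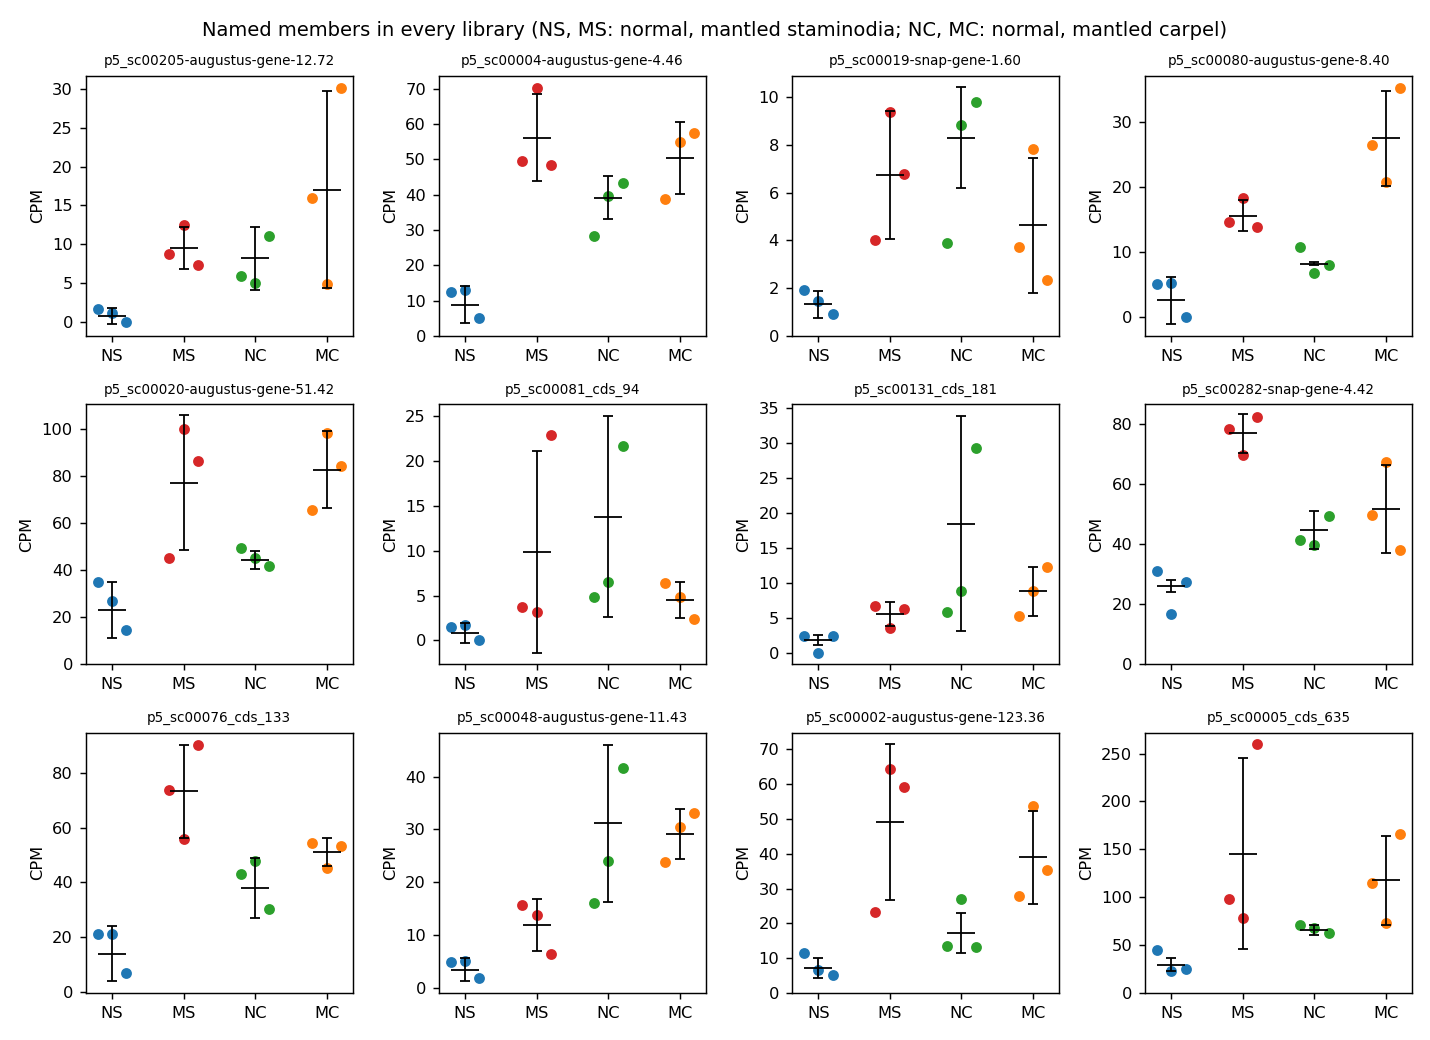
CPM of 12 named members in every library (coloured points, replicates 1 to 3 from left to right) by group, with a black bar for the mean and whiskers for the SD over palms (n = 2 normal, n = 3 mantled), where a whisker can reach below 0. Normal staminodia are lowest in each panel by the rule, and which of the other 3 groups is highest differs from member to member.

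Relative to both carpel means, the mean of mantled staminodia was above both in 26 members, between them in 22 and below both in 12. Over all models kept these shares were 34.7%, 32.7% and 32.7%. The rule used the values of these same libraries, and how far the choice shifts these counts was not tested.

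The members lay on 50 scaffolds, 43 of which held 1 member and 5 held 2, while p5_sc00001 held 4 and p5_sc00004 held 3. Only the 30 members with model numbers can be ordered by ID. They gave 3 pairs that shared a scaffold, each pair on a different scaffold, and the closest pair was 127 numbers apart. The positions of the other 30 were not used here. By the form of the ID, 30 members (50%) carried a model number and 20 (33.3%) a MAKER model from the AUGUSTUS gene predictor, against 62% and 21.1% of the models kept.

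Reading part numbers as pieces of 1 model, 29 members (48.3%) had 2 or more parts, against 54.1% of the models kept. In these 29, 108 parts had a mean CPM of 1 or more, and normal staminodia had the lowest group mean in 83 of them (76.9%), against 30.2% of 23080 such parts over all models kept. The same reads chose the members, so this describes how the low level was spread along the models. In 14 of 28 members with at least 2 such parts, every one of these parts was lowest in normal staminodia. The 3 parts of p5_sc00099_cds_161 are an example, at 38.5, 59.3 and 62.2 CPM in normal staminodia and at 57.2, 72.1 and 122 CPM in normal carpel. In mantled staminodia these parts stood at 76.2, 95 and 135 CPM and in mantled carpel at 75.5, 94.8 and 141 CPM. In each of the 3 parts normal staminodia was lowest and normal carpel next, while the order of the mantled organs differed between parts.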

How the data were processed

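Stranded libraries (SMARTer kit, per the labels) were sequenced on HiSeq or MiSeq instruments, and which library used which is not given. The authors deposited raw read counts per feature for each of the 12 libraries. HTSeq 0.6.1p1, TopHat2 2.0.13, cutadapt with Trim Galore, and CASAVA 1.8.2 are named in the submitters' processing notes. For the genome build, annotation and strand setting, nothing is given in the sources used here, so overlapping or antisense models may share reads, and recent copies may be undercounted. Rows that name no feature were dropped, and assigned reads made up 25.3% to 32.2% of each table. Features that differ only in a part number were summed to models.

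Members, lists and tests were chosen with earlier results of these data known. Counts per palm and organ were tested with edgeR 4.0.16 in R 4.3.3 (filterByExpr with a minimum count of 10, TMM, glmQLFit, glmQLFTest, robust), with Benjamini-Hochberg adjustment over all models and a threshold of 0.05. The SE is the absolute log2 fold change over the square root of F. In the second comparison the labels pair the organs by palm ID, and the deviations of a palm's organs from their group means correlated across 14768 models with a Pearson r of 0.283, 0.454 and 0.252. Alternatives included DESeq2 1.42.0 and limma voom 3.58.1. The steps were also run on simulated counts, and the outcome is not given or used here. Nothing in the sources used here says that palms were sampled independently. Each p-value sets a difference against the spread between these palms, which edgeR in part shares across models. Named models are the 2 highest scores, those beside the threshold and, per comparison, up to 2 members of smallest p in each direction. Others are marked as chosen later.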

Additional observations from a re-analysis of the deposited data

How the results depend on the processing

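No member was called under any alternative run for the 3 comparisons. Counts of called models in edgeR were 0, 2 and 7 for mantled over normal carpel, mantled staminodia over mantled carpel and mantled staminodia over normal carpel. They became 24, 113 and 78 without a filter, 4, 100 and 45 in DESeq2, and 4, 172 and 59 in limma voom. With 1 replicate left out they ranged from 0 to 5, 1 to 51 and 0 to 21. With no replicate block the paired comparison of mantled organs called 0 models, and all palms in 1 fit with palm as a block gave 25. For mantled staminodia over normal carpel the count was 18 with each library as a replicate, 2 with all 4 groups in 1 fit and 13 without normal replicates 1 and 2. Leaving out normal replicate 3, or replicates 1 and 2, leaves 1 normal palm, whose spread is assumed to be that of the mantled palms. In the second comparison DESeq2 gave an adjusted p to 3029 of 14768 models and 16 of 60 members. Each mantled palm gave 1 library per organ, so taking libraries as replicates changes nothing in the second comparison and was not run. The median log2 fold change of the members ranged from 0.09 to 0.29, 0.02 to 0.12 and 0.14 to 0.43 over all alternatives, and for the second comparison with 1 replicate left out from 0.025 (without mantled replicate 2) to 0.083. The log2 fold change of p5_sc00131_cds_181 in carpel ranged from -1.38 to 0.10 with 1 replicate left out, the latter without normal replicate 3. Membership ranged from 14 to 57 of 60 with 1 library left out, and was 36 with palm by tissue sums. The cause of these shifts was not tested. The highest normal staminodia library held fewer than 10 reads in 8 members, which limits the precision of their scores. With 2 normal palms, differences that vary among palms cannot be resolved.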

Other observations

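The libraries that decided the score are described here. The rule used their values, so nothing is read from the differences to all models kept. The highest normal staminodia library was replicate 1 in 34 members, replicate 2 in 16 and replicate 3 in 10, whereas over all models kept the shares were 33.7%, 27.2% and 39.1%. Among the 9 other libraries the lowest was a normal carpel library in 33 members, a mantled staminodia library in 16 and a mantled carpel library in 11, against 38.7%, 42.3% and 19% of the models kept. Within normal carpel it was replicate 1 in 15 members, replicate 2 in 11 and replicate 3 in 7, where replicate 3 was the lowest of the 9 in 22.7% of all models kept.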
